A study of Mus musculus with 34 samples.

Results

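STARR peaks that overlap no FAIRE peak were taken from activated mouse B cells: every distinct region of the deposited STARR-seq peak list that shares no base with a region of the deposited FAIRE-seq list. There were 5575 such peaks among 17381 distinct STARR peaks, 32.1% (Wilson 95% interval 31.4 to 32.8%, counting error only), and the other 11806 lay in FAIRE peaks and served as the comparison. Both lists come from B cells of the spleen of C57BL/6J mice aged 6 to 8 weeks, taken as the CD43-negative fraction, cultured for 3 days with lipopolysaccharide (LPS) of Salmonella typhimurium at 10 µg per ml, a dose that 1 label field gives per µl. RNA-seq was available from 2 of these activated samples and 2 samples of resting B cells, which have the same strain, age and CD43-negative selection. Other fields of the resting samples describe culture with LPS as well, so that these cells are called resting here from their titles and source names. The peak lists describe activated cells only, 1 list for each assay, so peaks have no replicates and no resting counterpart.

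FAIRE-seq recovers DNA that is poor in nucleosomes, where transcription factors bind promoters and enhancers. STARR-seq clones DNA fragments into the transcribed part of a reporter gene, where active fragments are found in the RNA in proportion to their enhancer activity, away from their own chromatin. The reporter library here was itself made from FAIRE DNA and was transfected 12 h or 24 h before RNA was taken, so a fragment could enter the library from DNA that the FAIRE peak caller did not call. H3K27ac is a histone mark of active enhancers and promoters, H3K4me3 is a mark of active promoters, and Hi-C records pairs of genome regions that touch in the nucleus. In B cells, LPS acts through a Toll-like receptor and drives growth, division and the start of antibody secretion.

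The lists hold 55126 distinct FAIRE peaks, 23938 H3K27ac peaks, 16861 H3K4me3 peaks, 48 super-enhancers (long domains of H3K27ac) and 27903 Hi-C contacts. The RNA table has 23812 gene rows, with FPKM values (fragments per kilobase of transcript, scaled to sequencing depth) that sum to 285068 and 285129 in the activated samples, against 244602 and 287884 in the resting samples. The B cell markers Cd79a, Cd79b, Ms4a1 and Cd22 were at 98.2 FPKM or more in each sample. The summed level of 10 T and NK cell markers was 3.56 and 2.0 FPKM in activated samples, against 28.3 and 44.1 FPKM in resting samples, with Cd3d, Cd3e, Cd3g, Thy1, Klrd1 and Ncr1 listed at 0 in both activated samples. That of 11 myeloid and dendritic markers was 28.8 and 25.2 FPKM, against 403 and 752 FPKM in resting samples, with C1qa, C1qb and Siglech at 0 in both activated samples. That of 7 erythroid marker rows was 12.2 and 5.43 FPKM, against 1029 and 8632 FPKM in resting samples. The part of these other cells in the RNA differences below was not tested, and in bulk samples fewer cells of a type cannot be told apart from less RNA per cell.

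Promoters were where members and sequence could be joined by gene. Of 7189 genes with 1 RefSeq promoter and a matching gene span, 16 had at least 150 of the 300 promoter bases under a STARR peak outside FAIRE, against 1558 under a STARR peak in FAIRE. The 4 of the 16 whose peak lay farthest from FAIRE are printed because they show promoters with both histone marks under STARR peaks that overlap no FAIRE peak. They are RefSeq sequences of build GRCm38.p6, 5′ to 3′ on the strand of the gene, from 250 bases before its start to 50 bases after it, and capitals mark the motifs searched.

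Tnfsf10: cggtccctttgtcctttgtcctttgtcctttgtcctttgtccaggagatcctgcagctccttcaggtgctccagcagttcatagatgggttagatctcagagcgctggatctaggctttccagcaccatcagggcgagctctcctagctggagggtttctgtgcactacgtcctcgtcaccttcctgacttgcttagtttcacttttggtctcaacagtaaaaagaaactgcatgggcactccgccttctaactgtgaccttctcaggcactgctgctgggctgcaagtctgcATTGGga

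Itpripl2: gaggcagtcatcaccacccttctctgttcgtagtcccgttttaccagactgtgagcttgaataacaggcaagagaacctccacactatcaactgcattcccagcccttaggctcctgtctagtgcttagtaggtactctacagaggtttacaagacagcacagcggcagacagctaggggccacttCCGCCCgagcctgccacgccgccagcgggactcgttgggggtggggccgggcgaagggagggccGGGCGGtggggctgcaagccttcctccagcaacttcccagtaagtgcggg

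Ikbke: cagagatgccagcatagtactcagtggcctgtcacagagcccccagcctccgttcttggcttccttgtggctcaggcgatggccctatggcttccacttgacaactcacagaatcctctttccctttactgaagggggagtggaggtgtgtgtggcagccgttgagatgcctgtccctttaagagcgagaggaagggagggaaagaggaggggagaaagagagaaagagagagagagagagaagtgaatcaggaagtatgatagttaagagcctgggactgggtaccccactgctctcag

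Tsnaxip1: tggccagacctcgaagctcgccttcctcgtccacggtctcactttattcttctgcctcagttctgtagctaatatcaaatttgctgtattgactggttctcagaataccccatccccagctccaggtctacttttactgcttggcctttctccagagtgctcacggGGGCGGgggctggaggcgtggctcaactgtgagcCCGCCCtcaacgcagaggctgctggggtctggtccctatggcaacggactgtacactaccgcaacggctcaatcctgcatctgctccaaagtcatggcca

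The motifs were the TATA box TATAAA, the CCAAT box CCAAT, the GC box GGGCGG, the ETS core CCGGAA and the octamer TTTGCAT, searched on both strands, and none of these contains another. Tnfsf10 holds 1 CCAAT box on the reverse strand, Itpripl2 and Tsnaxip1 hold 2 GC boxes each, and Ikbke holds none of the 5 motifs. The GC box was in 11 of the 16 promoters under a STARR peak outside FAIRE, 68.8%, against 72.0% of those under a STARR peak in FAIRE and 35.7% of all 32851 RefSeq promoters of this window. The ETS core was in 2 of 16, 12.5%, against 39.0% in FAIRE and 14.9% of all promoters. TATAAA was in 1 of 16, 6.25%, against 6.35% in FAIRE and 13.6% of all promoters. CCAAT was in 8 of 16, 50%, against 55.2% in FAIRE and 37.4% of all, and TTTGCAT was in 0 of 16, against 3.92% in FAIRE and 4.63% of all. The set of all promoters was not limited to genes with 1 RefSeq promoter and a matching gene span, unlike the others. With that limit, 5450 promoters had no STARR peak. Of these, 36.9% held the GC box, 13.4% the ETS core, 20.4% TATAAA, 36.3% CCAAT and 5.12% TTTGCAT. With 16 promoters these shares are a description.

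All 16 of these peaks carried both H3K27ac and H3K4me3, and 14 of them lay within 1 kb of a FAIRE peak. The peak at Tnfsf10, which encodes the death ligand TRAIL, was at chr3:27215785-27216084 (mm9), 58011 bases from the nearest FAIRE peak. Its RNA was 0.859 and 0.912 FPKM in activated samples, against 1.97 and 1.92 FPKM in resting samples, so the groups did not overlap. The peak at Itpripl2, at chr7:125635329-125635629, was 26611 bases from FAIRE. Its RNA was 0.353 and 0.192 FPKM in activated samples, against 2.20 and 2.43 FPKM in resting samples, lower in both activated samples. Ikbke, a kinase of innate signalling, had its peak 532 bases from FAIRE and an RNA level of 8.90 and 4.14 FPKM in activated samples, against 3.01 and 3.69 FPKM in resting samples. Both activated samples were above both resting samples, with a log2 difference of 0.72 (SE 0.31) that missed the threshold (limma, Benjamini-Hochberg adjusted p = 0.0872 over all tested genes). That difference was 0.24 without activated sample 1, and 1.19 and called without activated sample 2 (limma adjusted p = 0.00551), in a range of 0.00551 to 0.481 over 8 alternatives. Tsnaxip1, with its peak 127 bases from FAIRE, was at 0.0774 and 0.0967 FPKM in activated samples, against 0.196 and 0.201 FPKM in resting samples, below the level needed for the test.

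Differences between activated and resting samples were tested with limma on log2(FPKM + 1) over 10863 genes, and an adjusted p under 0.05 was called. Over all tested genes 28.2% were called higher and 26.2% lower in activated cells. Of the 16 genes with such a promoter 15 were tested, 4 were called higher and 7 lower. The 4 higher genes were Idi1 and Acat2, enzymes of the pathway to sterols, Orc6, a subunit of the origin recognition complex, and Gpr65, a proton-sensing receptor. Idi1 was at 38.5 and 41.2 FPKM in activated samples, against 2.86 and 3.37 FPKM in resting samples (log2 difference 3.32, SE 0.15, limma adjusted p = 4.04e-05). Acat2 was at 29.8 and 30.1 FPKM in activated samples, against 5.18 and 6.54 FPKM in resting samples (log2 difference 2.18, SE 0.16, limma adjusted p = 0.000131). The peaks at these genes sat close to FAIRE, 60 bases away at Idi1 and 22 bases away at Acat2. Orc6 was at 25.1 and 38.1 FPKM in activated samples, against 6.81 and 9.38 FPKM in resting samples, and its peak was 21 bases from FAIRE. Among the 7 lower genes, Sertad3 had a log2 difference of -1.52 and Itpripl2 one of -1.38, and the others were Tnfsf10, Mblac2, Nek8, Flcn and Fut11. Gpr65 and these last 5 genes each lost the call without resting sample 1 and also without resting sample 2, with limma adjusted p from 0.0558 to 0.171, and over all 8 alternatives from 0.00164 to 0.171. Without the filter on low values every one of the called genes but Idi1 lost the call, with limma adjusted p from 0.0632 for Acat2 to 0.143 for Nek8 (lowest over 8 alternatives 3.84e-05, for Acat2), while Idi1 kept it (limma adjusted p = 0.0348).

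The deposited STARR list turned out to be 2 lists joined end to end. The first 11569 lines hold peaks of 301 bases, apart from 2 of them, and the other 5813 lines hold peaks of 300 bases. The sources used here do not say what the parts are. In the first part 2630 of 11568 distinct peaks lay outside FAIRE, 22.7% (22.0 to 23.5%), and in the second part 2945 of 5813 did, 50.7% (49.4 to 51.9%). In both parts the share was lowest in the first slice of the list and highest in the last. In 5 equal slices of the first part it was 5.32, 10.6, 24.6, 32.5 and 40.6%. In those of the second part it was 38.1, 50.4, 50, 57.1 and 57.7%. The list holds no score, so its order could not be read as a strength.

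The peaks outside FAIRE ranged from direct neighbours of called FAIRE peaks to peaks with no FAIRE peak called within a megabase. The edge-to-edge distance to the nearest FAIRE peak had a median of 11006 bases (95% interval 9862 to 12213) and quartiles of 906.5 and 86554 bases. Within 150 bases lay 608 peaks, 10.9%, and within 1 kb 1434 peaks, 25.7%. More than 100 kb away lay 1321 peaks, 23.7%, and more than 1 Mb away 215 peaks, 3.86%. The median was 7093.5 bases in the first part of the list and 15079 bases in the second part. Of the 1434 peaks within 1 kb, 473 (33.0%) had a nearest FAIRE peak that held another STARR peak, where 21.5% of all FAIRE peaks held one.

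**Figure D1:**
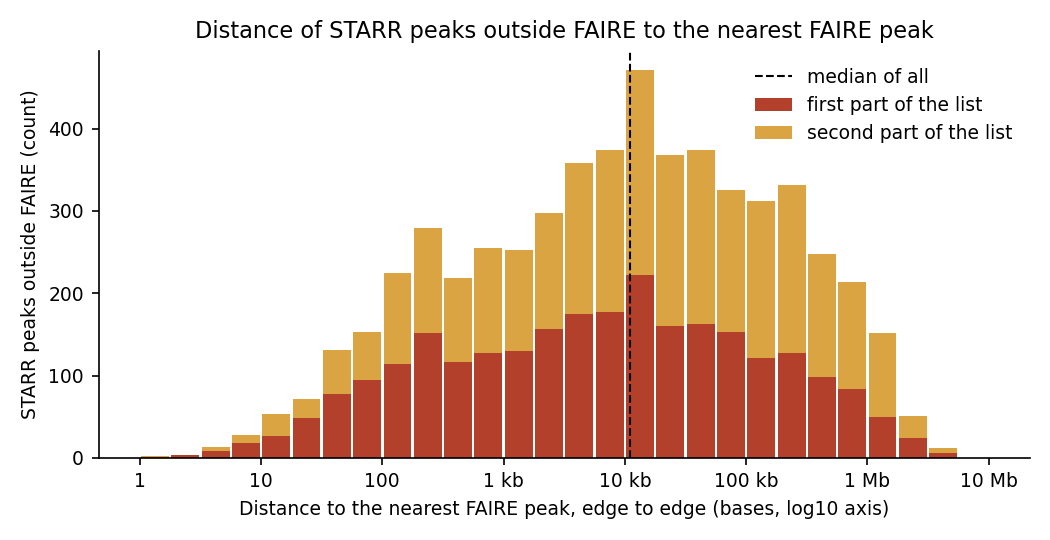
Histogram of the distance from each of the 5575 STARR peaks outside FAIRE to the nearest FAIRE peak, in bases on a log10 axis, with bars stacked by the part of the deposited list the peak comes from and a dashed line at the median of 11006 bases. The peaks spread from 1 base to 4722308 bases.

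At the edge of the rule, the peaks nearest to FAIRE and those with least overlap differed by a few bases in offset from FAIRE. The peak at chr11:6100052-6100351, in Nudcd3, touched its FAIRE peak edge to edge at a distance of 1 base and carried both marks. The peak at chr7:108687021-108687321 also lay at 1 base, carried neither mark, and was 13795 bases from the nearest gene, Art2a-ps. The peak at chr19:3943059-3943359, in Unc93b1, an escort protein of Toll-like receptors, lay 2 bases from FAIRE and carried H3K27ac. Just inside FAIRE, peaks beside Dgkd and Gstt2 and in Mettl4 shared 1 base with a FAIRE peak each and carried both marks. The deposited list of STARR peaks in FAIRE peaks has 11808 entries, 2 of which share no base with a FAIRE peak and lie at a distance of 1.

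Histone marks were mostly absent. Of the 5575 peaks outside FAIRE, 743 met an H3K27ac peak, 13.3% (12.5 to 14.2%), against 71.2% (70.3 to 72.0%) of the 11806 in FAIRE. H3K4me3 was met by 612 peaks, 11.0% (10.2 to 11.8%), against 60.1% (59.2 to 61.0%) in FAIRE. Both marks were on 494 peaks, H3K27ac alone on 249 and H3K4me3 alone on 118. Neither mark was on 4714 peaks, 84.6%, against 23.9% in FAIRE. Of 4732 peaks more than 1 kb from H3K4me3, 4.04% (3.51 to 4.64%) met H3K27ac, against 37.7% (36.2 to 39.2%) of 4196 in FAIRE. Both marks were less frequent outside FAIRE on all 20 chromosomes compared, from 1 to 19 and X. The H3K27ac share ran from 3.07% on chromosome X to 25.6% on chromosome 11 outside FAIRE, against 50% on X to 78.0% on chromosome 15 in FAIRE. Neighbouring peaks can share 1 mark domain, so the intervals are too narrow, and with 1 list for each assay no replicate test could be made.

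The marks followed the distance to FAIRE. H3K27ac was met by 63.8% (59.9 to 67.5%) of the 608 peaks within 150 bases, and by 34.5% (31.3 to 37.8%) of the 826 peaks at over 150 to 1000 bases. It was met by 4.06% of the 1282 peaks at over 1 to 10 kb, by 1.11% of the 1538 peaks at over 10 to 100 kb, and by 0.0757%, 1 peak, of the 1321 peaks farther away. H3K4me3 gave 52.5, 30.8, 2.34, 0.520 and 0.0757% in the same 5 classes. Over all 4141 peaks beyond 1 kb it was 1.69% for H3K27ac and 0.942% for H3K4me3. Members in the first part of the list had H3K27ac in 16.5% and those in the second part in 10.5%.

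**Figure D2:**
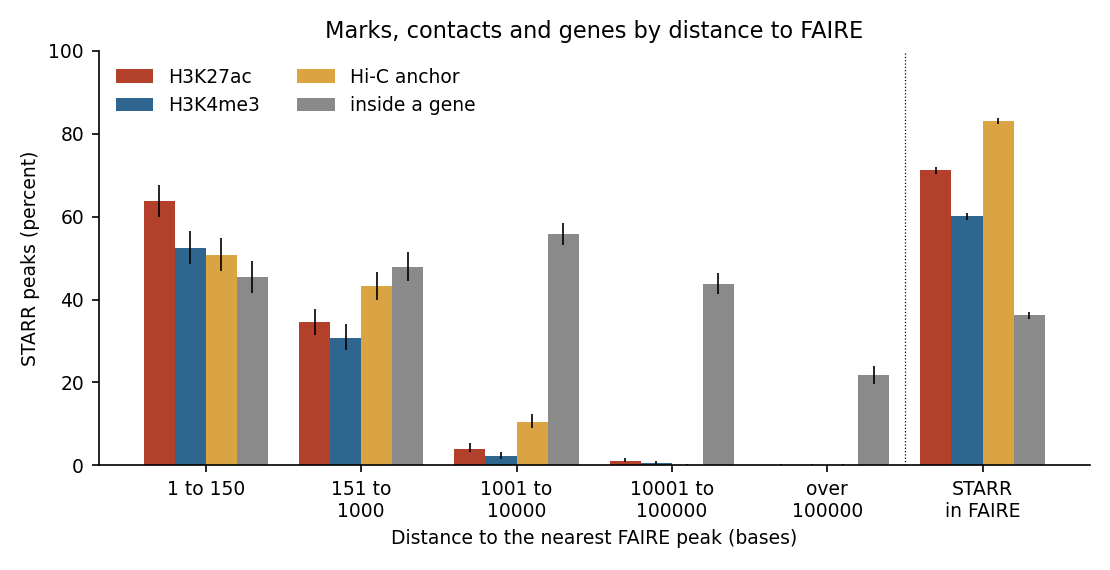
Percent of STARR peaks that met an H3K27ac peak, an H3K4me3 peak or a Hi-C anchor or whose middle lay in a gene, in 5 classes of distance to the nearest FAIRE peak and, at the right, for STARR peaks in FAIRE; bars are shares and lines their Wilson 95% intervals. H3K27ac fell from class to class, at 63.8% within 150 bases and 1.11% at over 10 to 100 kb, while the share inside genes was highest, at 55.8%, in the class over 1 to 10 kb.

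A few marked peaks stood far from any FAIRE peak. The farthest with both marks was at chr16:10656484-10656784, in Clec16a, a gene linked to autophagy and autoimmunity, 84456 bases from FAIRE. The next was at chr11:8588928-8589228, 65109 bases from FAIRE and 24540 bases from Tns3, a focal adhesion protein. It was followed by the peaks at the starts of Tnfsf10 and Itpripl2 and by one at chr4:142828742-142829042, 19610 bases from FAIRE and 26280 bases from Prdm2, a histone methyltransferase of the PRDM family.

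Super-enhancers held 10 of the peaks, 0.179%, against 108 of those in FAIRE, 0.915%. All 10 met H3K27ac and 7 met H3K4me3, and 8 of them lay within 1 kb of a FAIRE peak. One was in Ikzf1, which encodes the lymphoid transcription factor Ikaros, at chr11:11588235-11588534. Another was in Mgat1, an enzyme of N-glycan synthesis, at chr11:49057597-49057897, and another in Snrnp35, a protein of the minor spliceosome, at chr5:124933487-124933787. A further peak lay 2030 bases from Serp1, a protein of the endoplasmic reticulum stress response, at chr3:58323712-58324011. Of the other 6, outside genes, the nearest gene rows were Plekhg2 at 767 bases, Med29 at 2629, 1700017B05Rik at 15467, Adam6b at 62470 and, for 2 peaks, Hira at 90449 and 94305 bases. Ikzf1 RNA was 104 and 113 FPKM in activated samples, against 109 and 98.5 FPKM in resting samples, with a log2 difference of 0.06 (SE 0.19, limma adjusted p = 0.801) and overlapping groups. Mgat1 RNA was 82.6 and 103 FPKM, against 79.7 and 94.95 FPKM in resting samples, and also overlapped. Snrnp35 RNA was 10.7 and 13.9 FPKM, against 6.49 and 6.17 FPKM in resting samples (log2 difference 0.85, SE 0.17, limma adjusted p = 0.00610). That call was lost without resting sample 1 (0.0764) and without resting sample 2 (0.0817), in a range of limma adjusted p from 0.00386 to 0.127 over 8 alternatives.

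Hi-C anchors met 802 of the peaks outside FAIRE, 14.4% (13.5 to 15.3%), against 83.1% (82.4 to 83.7%) of those in FAIRE. The deposited contacts were filtered, and 27886 of 27903 had an anchor with a STARR peak in FAIRE, so this difference is set in part by how the list was made. By distance, 50.8% of the peaks within 150 bases met an anchor, then 43.2%, 10.5% and 0.0650%, and none of the 1321 peaks beyond 100 kb did. Of the contacts, 2746 had a peak outside FAIRE in an anchor, and in 812 contacts that anchor held no STARR peak in FAIRE. Anchors are 5000 bases wide, and most of these also held a FAIRE peak. A FAIRE peak was in 2699 of 2850 anchor sides with a STARR peak outside FAIRE, 94.7%. Of the 812 sides without a STARR peak in FAIRE, 672 held a FAIRE peak, 82.8%. Contacts with a STARR peak outside FAIRE had a median of 7 reads (quartiles 5 and 13) and contacts without one 7 reads (quartiles 5 and 12). The middles of their anchors were a median of 812864 bases apart, against 344097 bases for contacts without one.

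In relation to genes, the peaks lay more often inside gene bodies or far from genes, and less often near gene ends, than the peaks in FAIRE. The middle of 2348 peaks lay inside a gene span, 42.1% (40.8 to 43.4%), against 36.2% (35.3 to 37.1%) of the peaks in FAIRE, and the share was lower outside FAIRE on 2 of 20 chromosomes. Within 1 kb of a gene end lay 508 peaks, 9.11% (8.38 to 9.90%), against 45.4% (44.5 to 46.3%) in FAIRE. Inside a gene and more than 1 kb from both ends lay 38.1%, against 24.98% in FAIRE. Outside genes, 1009 peaks were more than 100 kb from any gene, 18.1%, against 2.16% in FAIRE. The median distance of intergenic peaks to a gene was 39088 bases (n = 3227), against 541 bases (n = 7532) in FAIRE. By distance to FAIRE, the share near a gene end was 38.3, 22.2, 3.51, 2.47 and 0.681% in the 5 classes from near to far.

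The peaks were sparse along the chromosomes, apart from dense runs, most of the longer ones in 1 stretch of chromosome 4. The median gap between neighbours was 214906.5 bases (203056 to 228736), against 43525 bases (41830 to 45630) between neighbours in FAIRE, of which there are more. Gaps of at most 12.5 kb were 12.2% of the gaps between peaks outside FAIRE, against 26.2% of those between peaks in FAIRE. Runs were built for peaks outside FAIRE only. Joining neighbours no more than 12.5 kb apart left 4506 peaks alone, 80.8%, and put 1069 peaks in 389 runs of 2 or more. There were 29 runs of at least 5, with 283 peaks, and 20 of the 29 lay in 1.95 Mb of chromosome 4, chr4:145245946-147194379. The longest run of all was on chromosome X, chrX:92122646-92166589, with 21 peaks in 43944 bases that hold 36 FAIRE peaks, 32 STARR peaks in FAIRE and no gene. It met neither mark. On chromosome 13, runs of 12 and 8 peaks lay at chr13:12880313-12931075 and chr13:12958724-12982915.

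The stretch of chromosome 4 held 244 peaks, 4.38% of all outside FAIRE, against 174 in FAIRE, 1.47%, and 350 FAIRE peaks, 0.635% of that list. Of the 244, 1 met H3K27ac and 1 met H3K4me3. Marks were scarce in the stretch on STARR peaks in FAIRE as well. Of those 174, 11 met H3K27ac and 12 met H3K4me3, where 71.2% and 60.1% of all STARR peaks in FAIRE did. The median distance of the 244 to FAIRE was 796.5 bases. The stretch has 18 annotated gene rows, 15 of them with at least 1 such peak and 13 with names given to predicted or uncharacterised genes, among zinc finger genes such as Zfp600, Zfp534, Rex2 and Znf41-ps. Rex2 stands on 2 rows there, and as background, zinc finger genes of this kind occur as similar copies; how similar copies shared reads was not tested, and values there are given as uncertain. Gm13152 held 56 peaks, more than any other gene, in a span of 337.556 kb, and its RNA was 0.369 and 0.366 FPKM in activated samples, against 0.372 and 0.271 FPKM in resting samples. Gm13139 held 12 peaks and was at 3.52 and 3.08 FPKM in activated samples, against 1.87 and 2.56 FPKM in resting samples. Of 5 genes tested none was called higher and 1 lower, beside 28.2% and 26.2% of all tested genes. The lower one, Gm13157, was at 8.42 and 6.48 FPKM in activated samples, against 11.4 and 12.7 FPKM in resting samples. Its limma adjusted p was 0.0194, and its call was not followed under the alternatives. Zfp600 was at 0.0198 and 0.0124 FPKM in activated samples, against 0.0287 and 0.0443 FPKM in resting samples, and Zfp534 did not exceed 0.146 FPKM in any sample.

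**Figure D3:**
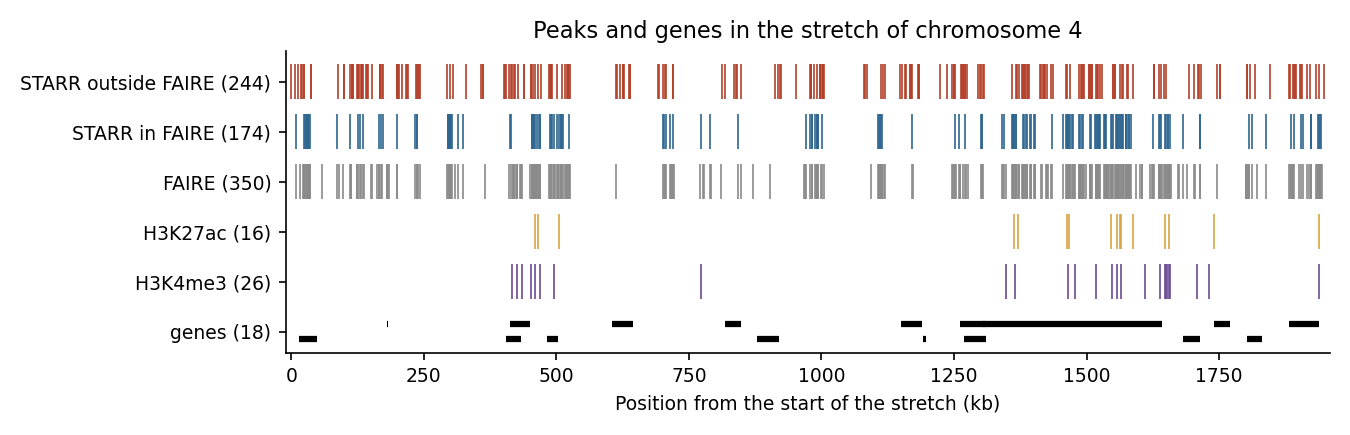
Map of the stretch of chromosome 4, with position in kb from its start; each tick is the middle of a peak and black bars are the 18 gene spans, with counts in the labels. The 244 STARR peaks outside FAIRE are interleaved with 350 FAIRE peaks and 174 STARR peaks in FAIRE, beside 16 H3K27ac and 26 H3K4me3 peaks.

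Of the 10 peaks farthest from FAIRE 2 lay inside genes, and the other 8 were 40656 to 205950 bases from the nearest one. The farthest, at chr14:3875860-3876159, was 4722308 bases from a FAIRE peak and lay in the spans of Gm5795 and 1700110I01Rik. Of the 10 farthest, 6 were on chromosome X, 5 of them between chrX:27125745-27126045 and chrX:29653042-29653341, and none of the 10 met a mark. On chromosome X as a whole 52.1% of STARR peaks were outside FAIRE, the highest share of the 20 chromosomes, and on chromosome 11 20.2% were, the lowest.

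Genes that hold these peaks had a median level of a few FPKM in both groups, and the shares called higher and lower in activated cells were within 3 percentage points of those of all tested genes. The 2348 intragenic peaks lay in 1789 genes, of which 1437 held 1 peak, 237 held 2, 64 held 3 and 51 held 4 or more. The median level of these genes was 4.56 and 4.44 FPKM in the activated samples, against 4.31 and 4.45 FPKM in the resting samples. Of the 1789 genes, 302 (16.9%) were listed at 0 in both activated samples, where 36.1% of all rows were. The test covered 1193 of them, with 314 called higher in activated cells, 26.3% beside 28.2% of all tested genes, and 337 called lower, 28.2% beside 26.2% of all tested genes. Their median log2 difference was -0.02, against 0.03 over all tested genes. Without resting sample 1 the calls were 137 higher and 128 lower, and without resting sample 2 they were 166 and 148. Without the filter on low values 7 were called higher and 15 lower, among 64 and 233 of all genes.

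The level differed with the kind of STARR peak in the gene. In 1181 genes with peaks outside FAIRE only, the median was 2.38 and 2.27 FPKM in activated samples, against 2.42 and 2.52 FPKM in resting samples. In 608 genes with both kinds it was 8.67 and 8.11 FPKM, against 8.37 and 8.38 FPKM in resting samples. In 2498 genes with STARR peaks in FAIRE only it was 8.67 and 8.66 FPKM, against 8.48 and 8.81 FPKM in resting samples. In 19525 genes with no STARR peak it was 0.0434 and 0.0337 FPKM, against 0.0777 and 0.0855 FPKM in resting samples. Long genes hold more peaks by their length, so levels were also read within classes of span. Among genes of 30 to 100 kb the median activated level was 6.17 FPKM in 429 genes with peaks outside FAIRE only, 10.9 FPKM in 242 genes with both kinds and 9.67 FPKM in 817 genes with STARR peaks in FAIRE only. Among genes over 300 kb these medians were 0.00425 FPKM in 160 genes, 1.72 FPKM in 72 genes and 0.312 FPKM in 50 genes. In genes of 10 to 30 kb they were 5.96, 10.6 and 11.5 FPKM. Genes with no STARR peak had a lower median activated level in each of these classes. It was 0.602 FPKM at 10 to 30 kb, 0.638 FPKM at 30 to 100 kb and 0 FPKM over 300 kb.

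Per megabase of gene span, the peaks outside FAIRE varied less with the level of the gene than those in FAIRE. Genes listed at 0 in activated cells held 1.40 per Mb outside FAIRE, against 0.580 per Mb in FAIRE. Genes over 0 to 1 FPKM held 1.71 per Mb, against 2.60 per Mb in FAIRE, and those at 1 to 10 FPKM held 3.17 per Mb, against 6.08 per Mb in FAIRE. Genes at 10 to 100 FPKM held 4.29 per Mb, against 10.8 per Mb in FAIRE, and those at 100 FPKM or more held 5.29 per Mb, against 29.0 per Mb in FAIRE. Without genes of the chromosome 4 stretch, the 5 levels held 1.37, 1.37, 3.01, 4.29 and 5.29 per Mb outside FAIRE. The 2 lowest levels then did not differ. Counting only peaks more than 1 kb from FAIRE, with the stretch, the 5 levels held 1.28, 1.26, 2.17, 2.64 and 1.53 per Mb. Genes called higher held 3.68 per Mb, genes called lower 3.62 per Mb and tested genes not called 3.51 per Mb.

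The level of the host gene also went with distance to FAIRE. Of intragenic peaks within 150 bases of FAIRE, 80.4% lay in a gene at 1 FPKM or more in activated cells, close to 79.2% for STARR peaks in FAIRE. At over 150 to 1000 bases it was 75.3%, at over 1 to 10 kb 78.0% and at over 10 to 100 kb 56.7%. Beyond 100 kb it was 2.44% of 287 peaks, whose genes had a median span of 382698 bases, against 48488 bases for the peaks within 150 bases.

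**Figure D4:**
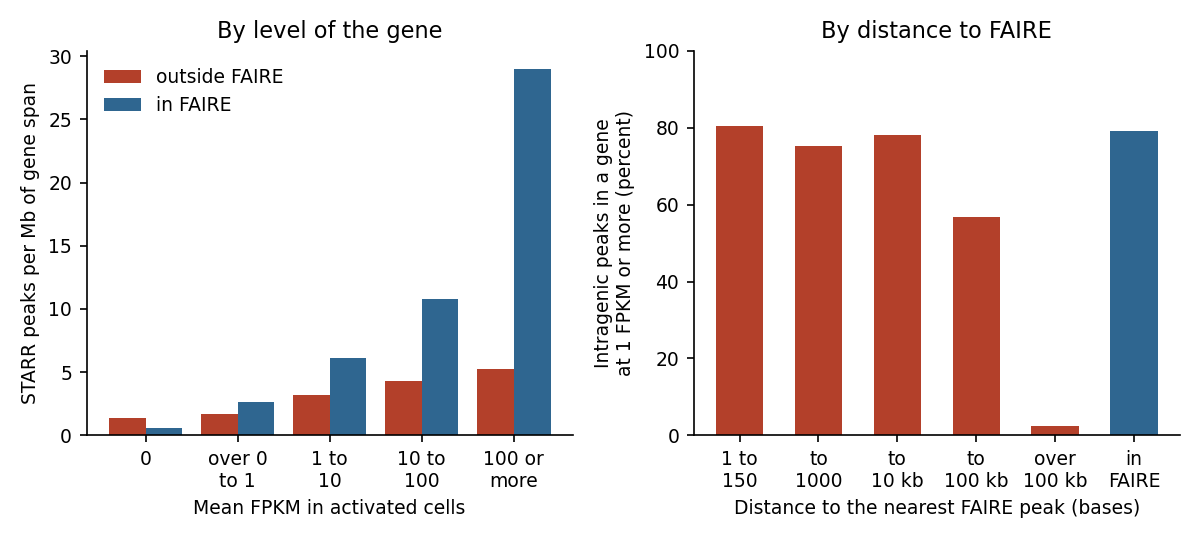
Left, STARR peaks per Mb of gene span in 5 classes of mean FPKM in activated cells, for peaks outside and in FAIRE. Right, percent of intragenic STARR peaks whose gene was at 1 FPKM or more in activated cells, by distance to FAIRE (red) and for peaks in FAIRE (blue); bars have no error because each list is 1 call set. Peaks outside FAIRE go from 1.40 to 5.29 per Mb over the classes, and peaks in FAIRE from 0.580 to 29.0 per Mb.

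Apart from genes with predicted names and symbols on more than 1 row, 8 genes among the 10 with the most peaks outside FAIRE are described, and they were of 2 kinds. Some were silent long genes. Fam5c, a gene of the nervous system, held 7 peaks and was listed at 0 FPKM in all 4 samples. Ptprd, a receptor phosphatase of neurons with a span of 2270.66 kb, held 6 peaks and no FAIRE peak, and its RNA was 0.0525 and 0 FPKM in activated samples, against 0.0152 and 0 FPKM in resting samples. Agbl4, a carboxypeptidase that acts on tubulin, held 5, with 0 FPKM in each activated sample, against 0 and 0.0359 FPKM in resting samples. Unlike Ptprd, the span of Agbl4 held 19 FAIRE peaks, 7 H3K27ac peaks, 3 H3K4me3 peaks and 3 STARR peaks in FAIRE. Of its 5 peaks outside FAIRE, 1 met H3K27ac, and the nearest lay 72 bases from FAIRE. These 3 genes failed the filter and were not tested.

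The others were expressed in B cells, and 3 of them passed the test. Fut8, which adds the core fucose to N-glycans, held 6 peaks, 1 of them with H3K27ac, and was at 29.3 and 31.6 FPKM in activated samples, against 4.54 and 6.62 FPKM in resting samples. It rose by 2.27 on the log2 scale (SE 0.19, limma adjusted p = 0.000211), with both activated samples above both resting samples. Its call was lost without the filter on low values, and over 8 alternatives its limma adjusted p ran from 3.77e-05 to 0.0751. Tbc1d5, a Rab GTPase regulator of endosome traffic, held 6 and was at 7.26 and 4.67 FPKM in activated samples, against 9.97 and 10.5 FPKM in resting samples. Arhgap15, a negative regulator of Rac, held 5 and was at 26.9 and 22.3 FPKM in activated samples, against 34.3 and 44.6 FPKM in resting samples. Both were called lower in activated cells (limma adjusted p = 0.0246 for Tbc1d5 and 0.0290 for Arhgap15). Tbc1d5 lost the call without activated sample 2 (0.0634), resting sample 1 (0.154) or resting sample 2 (0.174), in a limma range of 0.00455 to 0.247. Arhgap15 lost it without the same samples (0.106, 0.0788 and 0.201), in a limma range of 0.00633 to 0.232. Stag1, a cohesin subunit, held 6 peaks and was at 11.3 and 15.1 FPKM in activated samples, against 10.7 and 11.8 FPKM in resting samples, which overlap. Znf41-ps, in the chromosome 4 stretch, held 8 and was at 2.16 and 2.10 FPKM, against 1.44 and 1.74 FPKM in resting samples (limma adjusted p = 0.173).

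**Figure D5:**
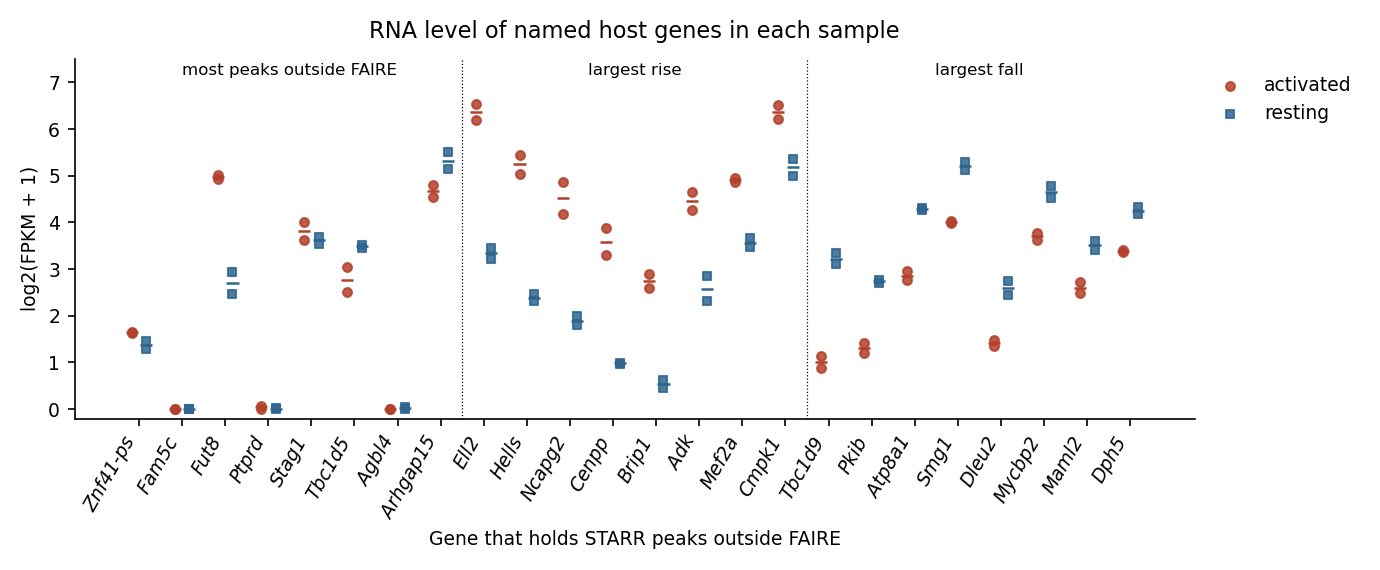
RNA level as log2(FPKM + 1) of named genes that hold STARR peaks outside FAIRE; circles are the 2 activated samples, squares the 2 resting samples and short lines their means. The left panel has 8 genes among the 10 with the most such peaks, and the other panels have genes chosen for non-overlapping groups, so their separation is set by the choice.

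Among genes that hold at least 2 peaks outside FAIRE and no STARR peak in FAIRE, the 8 with the largest rise were chosen by their values. The role of each is given as background. Ell2, an elongation factor that plasma cells use for antibody mRNA, was at 71.8 and 92.5 FPKM in activated samples, against 8.37 and 10.0 FPKM in resting samples. Of its 2 peaks, 1 lay 139 bases from FAIRE and met H3K27ac, and the other lay 3088 bases away. It rose by 3.02 on the log2 scale (SE 0.19, limma adjusted p = 8.40e-05). Hells, a chromatin remodelling helicase, was at 32.1 and 42.9 FPKM in activated samples, against 3.99 and 4.53 FPKM in resting samples. Ncapg2, a condensin subunit, was at 17.1 and 28.1 FPKM in activated samples, against 2.48 and 2.96 FPKM in resting samples. Cenpp, a centromere protein, was at 8.86 and 13.7 FPKM in activated samples, against 0.967 and 0.984 FPKM in resting samples. Hells rose by 2.86, Ncapg2 by 2.63 and Cenpp by 2.61 on the log2 scale, and the peaks in Cenpp lay 33232 and 41695 bases from FAIRE. Brip1, a helicase of DNA repair, held 3 peaks, none nearer to FAIRE than 4460 bases, and was at 5.03 and 6.49 FPKM in activated samples, against 0.540 and 0.374 FPKM in resting samples. Adk, adenosine kinase, held 3 and was at 18.2 and 24.1 FPKM in activated samples, against 3.98 and 6.22 FPKM in resting samples. Mef2a, a transcription factor, held 3 at 6836 to 18978 bases from FAIRE and was at 29.8 and 28.1 FPKM, against 11.7 and 10.1 FPKM in resting samples. Cmpk1, a nucleotide kinase, was at 73.8 and 89.9 FPKM in activated samples, against 31.1 and 40.3 FPKM in resting samples. Its call was lost without resting sample 1 (limma adjusted p = 0.0739, in a range of 0.000742 to 0.116). Without the filter on low values all 8 lost the call, with limma adjusted p from 0.0627 for Ell2 to 0.116 for Cmpk1, and the lowest over 8 alternatives was 1.14e-05 for Ell2.

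The 8 with the largest fall were chosen in the same way. Tbc1d9, of a family of Rab regulators, was at 1.19 and 0.856 FPKM in activated samples, against 9.198 and 7.58 FPKM in resting samples (log2 difference -2.21, SE 0.18, limma adjusted p = 0.000196). Pkib, an inhibitor of protein kinase A, was at 1.66 and 1.30 FPKM in activated samples, against 5.54 and 5.79 FPKM in resting samples. Atp8a1, a phospholipid flippase, held 3 peaks at 8879 to 29888 bases from FAIRE and was at 6.73 and 5.80 FPKM in activated samples, against 18.7 and 18.3 FPKM in resting samples. Both fell by 1.43 on the log2 scale. Smg1, a kinase of nonsense-mediated decay, held 3 and was at 15.3 and 14.8 FPKM in activated samples, against 38.1 and 33.9 FPKM in resting samples. Dleu2, a long noncoding RNA that hosts microRNAs, held 2, of which 1 met H3K27ac, and was at 1.56 and 1.81 FPKM in activated samples, against 4.45 and 5.71 FPKM in resting samples. Mycbp2, a ubiquitin ligase, Maml2, a Notch co-activator, and Dph5, an enzyme of diphthamide synthesis, fell by 0.96, 0.91 and 0.86. Without resting sample 1 these 3 lost the call, with limma adjusted p of 0.0584 for Mycbp2, 0.0775 for Maml2 and 0.0600 for Dph5, and over all alternatives the ranges were 0.00117 to 0.101, 0.00196 to 0.107 and 0.00162 to 0.0883. Without the filter on low values all 8 lost the call, with limma adjusted p from 0.0677 for Tbc1d9 to 0.107 for Maml2, and the lowest over 8 alternatives was 6.49e-05 for Tbc1d9.

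Gene lists were set beside all 23812 gene rows, of which 7.51% held a peak outside FAIRE, at 2.42 per Mb of span, against 4.38 per Mb in FAIRE. Of 20 B cell identity genes 6 held such peaks, 30%, 9 in all or 5.20 per Mb, against 35 or 20.2 per Mb in FAIRE. The median activated level of this list was 65.0 FPKM. Of all genes at 10 to 100 FPKM, 11.4% were hosts, with 4.29 per Mb outside FAIRE and 10.8 per Mb in FAIRE. Of the 20, 15 were called lower in activated cells and 1 higher, where 26.2% of all tested genes were called lower and 28.2% higher. Foxp1, a transcription factor of quiescent and early B cells, held 3, against 12 in FAIRE, and was at 33.7 and 38.6 FPKM in activated samples, against 61.2 and 60.3 FPKM in resting samples. Ebf1, which specifies the B lineage, held 2, against 7 in FAIRE, and was at 22.3 and 14.4 FPKM in activated samples, against 35.9 and 26.9 FPKM in resting samples. Both were called lower (limma adjusted p = 0.0119 for Foxp1 and 0.0369 for Ebf1). Foxp1 lost the call without resting sample 1 (0.103) or 2 (0.0926), in a limma range of 0.00197 to 0.112. Ebf1 lost it without activated sample 2 (0.145), resting sample 1 (0.264) or resting sample 2 (0.105), in a limma range of 0.00390 to 0.318. Cd79a, a signalling chain of the B cell receptor, held 1 peak with H3K27ac, 612 bases from FAIRE.

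Of 19 plasma cell and secretion genes 2 were hosts, 10.5%, Ell2 with 2 peaks and Fam46c with 1, and 18 of the 19 were called higher, beside 28.2% of all tested genes. Of 20 LPS and NF-kB genes 1 was a host, 5%, Traf6, an adaptor of Toll-like receptor signalling. Of the 20, 5 were called higher and 6 lower, beside 28.2% and 26.2% of all tested genes. Of 20 quiescence and homing genes 4 were hosts, 20%, namely Cxcr4, Btg2, Foxo1 and Bach2, and 17 of 19 tested were called lower, beside 26.2% of all tested genes, and 1 higher. Of 20 cell cycle genes 2 were hosts, 10%, Ccna2 and Mcm2, and all 20 were called higher, beside 28.2% of all tested genes. No gene of the T and NK or the erythroid list held a peak outside FAIRE. In the myeloid and dendritic list of 11 genes Emr1 held 1 and Flt3, a receptor of progenitors and dendritic cells, held 2. Flt3 was at 25.9 and 15.9 FPKM in activated samples, against 5.25 and 4.36 FPKM in resting samples. Its log2 difference was 1.88 (SE 0.24, limma adjusted p = 0.00100). In contrast, 7 of the 10 tested genes of its list were called lower, beside 26.2% of all tested genes. Without the filter on low values Flt3 lost the call, and over 8 alternatives its limma adjusted p ran from 0.000107 to 0.103.

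The list with the most hosts was of long genes of nervous tissue and muscle. Of its 30 genes 17 held peaks outside FAIRE, 56.7%, 38 in all or 1.04 per Mb, against 6 in FAIRE or 0.164 per Mb. All 30 had a mean under 1 FPKM in activated cells, and none was tested. Lrp1b, of the LDL receptor family, held 5 and was listed at 0 in all 4 samples. Grm7, a glutamate receptor, held 4 at 732729 to 1500563 bases from FAIRE, with 0.0197 and 0 FPKM in activated samples, against 0 FPKM in both resting samples. Cntnap2, of the neurexin family, held 3 at 867072 to 1692303 bases from FAIRE and did not exceed 0.0484 FPKM. Cadm2, an adhesion protein of synapses, held 3 at 41506 to 377686 bases from FAIRE, with 0.0173 and 0 FPKM in activated samples, against 0.00609 and 0 FPKM in resting samples. The 30 genes' density of 1.04 per Mb stands beside 1.40 per Mb in all genes listed at 0 and 2.42 per Mb in all gene rows, over a total span of 36.6 Mb.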

How the data were processed

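Peak lists, Hi-C contacts and RNA values of activated B cells, and RNA values of resting B cells, were used as deposited. Build mm9 and the tools bedtools, Bowtie, Bowtie2, HOMER, STAR and TopHat2 appear in the submitters' processing notes, without versions or roles, and per the series design peaks were called with HOMER. Peak lists give positions only, and per the labels each FAIRE or ChIP-seq list belongs to replicate 1, while 1 STARR list covers both reporter times. The deposited RNA values have no named unit and were treated as FPKM, because they are not whole and their sums differ, so read depth is unknown. Genes without strand data may share reads where spans overlap. The deposited Hi-C list gives a read count and a z-score for each contact, of which only the count was described. The score of each contact, a z-score, was computed by the authors before they deposited the list, by a method not given in the sources used here.

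Duplicate rows were removed. A STARR peak was outside FAIRE if it shared no base with a FAIRE peak, met a mark if it shared at least 1 base, and lay in a gene if its middle was in the span of the RNA table. Distances are edge to edge, coordinates 1-based on mm9. Shares have Wilson 95% intervals, which cover counting error only. Genes with at least 1 FPKM in at least 2 samples were tested, activated over resting, with limma 3.58.1 (R 4.3.3, trend and robust) on log2(FPKM + 1), which understates the change of low genes. The labels name no separate animals, so the p-values reflect only how these samples vary, and that variation may be technical. Both steps were tested on simulated data. Named genes were the 10 with the most peaks, the 8 largest rises and falls among called genes with at least 2 peaks outside FAIRE, none in FAIRE, groups that do not overlap and at least 5 FPKM in the higher one, up to 6 per list with at least 2 peaks, and hosts in super-enhancers, and genes of the promoters and the chromosome 4 stretch were added after their values were seen. Predicted names and symbols on several rows were left out. Some genes that the rule names are not analysed here. The members and lists were chosen with earlier results of these data known. Overlap rules, list parts, autosomes, pseudocount, filter, quantile normalization, replicate block and left-out samples were alternatives.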

Additional observations from a re-analysis of the deposited data

How the results depend on the processing

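Requiring 50% of a STARR peak in FAIRE gave shares of 23.1% with H3K27ac and 18.7% with H3K4me3, a median distance of 4329 and a median gap of 158223 bases. Widening FAIRE peaks by 500 bases gave 2.84%, 2.14%, 22924 and 299683.5 bases. The upper part of the STARR list, to the middle line, gave 1496 peaks, 19.1%, 16.3%, 5214.5 and 722071.5 bases. The first and the second part of the list, chosen after seeing the data like the next 2 choices, gave 2630 and 2945 peaks, 16.5% and 10.5%, 13.8% and 8.46%, distances of 7093.5 and 15079 bases and gaps of 455719 and 452062.5 bases. Without the chromosome 4 stretch the distance was 12569 and the gap 236613.5 bases. Peaks beyond 1 kb from FAIRE gave 1.69% with H3K27ac, 0.942% with H3K4me3 and 40.5% inside a gene. A mark within 1 kb gave 19.4% and 15.1%, and 50% of the peak in the mark 11.7% and 9.58%. Under autosomes only, no value left the interval of the reported one. Fewer peaks lengthen gaps by construction.

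Without the filter on low values, 64 genes were called higher and 233 lower, of which 7 and 15 were hosts. Leaving out 1 sample gave 1105 to 3191 genes higher and 1244 to 2832 lower, and 137 to 317 hosts higher and 128 to 329 lower, lowest without resting replicate 1. Genes with at least 2 peaks gave 57 higher and 74 lower of 222 tested, 25.7% and 33.3%. Hosts of peaks beyond 1 kb gave 204 and 241 of 828, 24.6% and 29.1%. Hosts with no STARR peak in FAIRE gave 187 and 176 of 699, 26.8% and 25.2%. Over all tested genes the shares were 28.2% higher and 26.2% lower. The median levels of these kinds of host were 4.54, 2.65 and 2.33 FPKM in that order. That of tested hosts was 10.5 FPKM, and that of all hosts with 1 activated sample left out 4.44 to 4.56 FPKM. With the replicate block 3317 genes were called higher and 2964 lower, and 335 and 356 hosts; same-numbered samples deviated with a correlation of 0.124, and the 2 pairs do not show a pairing. Of 35 genes called among those taken by the naming rule and the promoters, 1, Idi1, kept its call under all 8 alternatives, 15 lost it when 1 sample was left out, and none reversed. The cause of the drop in calls without the filter was not tested. Peak lists without replicates or scores and RNA values without read totals limit what these data can show.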
